A study of Homo sapiens with 5 samples.

Results

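The genes of cholesterol and fatty acid synthesis were compared between differentiating human embryonic stem cells (hESC) that overexpressed miR-122 or a mutant of it. The list holds 32 genes named for their enzymes or regulators. Its genes were picked by name, but with earlier results of these data known. Of these, 28 were measured by a probe set that names a single gene, of 11963 genes in all. FDFT1 and STARD4 were not analysed here, and CYP51A1 and FADS1 were read only by probe sets that name a second gene. A gene with more than 1 probe set was taken at the one with the brightest mean over the 5 arrays.

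The cells were of HES2, an established line of hESC, and their RNA was read on Affymetrix Human Genome U133A 2.0 arrays once they had differentiated spontaneously for 2 weeks, in KO medium that lacked bFGF and off feeder cells. Before that, the cells had grown on feeder cells derived from foreskin, with bFGF. The wt miR-122 group (2 arrays) carried a lentiviral vector in which the H1 promoter drives a genomic fragment of miR-122, and the mutant miR-122 group (3 arrays) carried the same vector with base changes in the seed of the miRNA. In both vectors the EF1α promoter drives a red fluorescent protein, so that the control cells share the vector, the marker and the differentiation, and a single line stands for hESC in both groups. Differences are given as log2 value of wt minus log2 value of mutant cells, with the standard error (SE) of limma and p-values adjusted over all probe sets. The arrays read a mixed culture, in which fewer cells of a type and less RNA per cell cannot be told apart. The sources used here call the arrays independent experiments, with no further detail on cultures, and with 2 arrays in one group and 3 in the other, the smallest two-sided p of an exact permutation test is 0.1.

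Cholesterol is built from acetyl-CoA by way of mevalonate, isoprenoid units and squalene, and fatty acids are built from the same acetyl-CoA. The SREBP transcription factors switch on both sets of enzymes when membranes are poor in sterols. SCAP carries the SREBPs to the Golgi for cleavage, and the INSIG proteins hold them back in the endoplasmic reticulum when sterols are plentiful. miR-122 is the most abundant miRNA of adult liver, and its inhibition there is known to lower the expression of cholesterol synthesis genes.

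The mature miRNA is shown because its seed is what separates the groups. It lies at chr18:58451088-58451109 on the plus strand of GRCh38.p14, its sequence was taken from RefSeq, and capitals mark the seed, bases 2 to 8.
hsa-miR-122-5p: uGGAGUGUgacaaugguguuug

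The promoters of 4 members are shown because the results turn on INSIG1, DHCR7 and SCD, the members with the smallest p-values, and because SREBF2 held the sterol regulatory element. Each stretch is the 150 bases before the gene start in RefSeq on GRCh38.p14, and capitals mark matches, on either strand, to the sterol regulatory element, which contains the core TCACNCCAC, the E-box CACGTG, the NF-Y box CCAAT or the GC box GGGCGG. The INSIG1 stretch is chr7:155297728-155297877 on the plus strand, the DHCR7 stretch, before one of its 2 start sites, is chr11:71448394-71448543 on the minus strand, the SCD stretch is chr10:100347083-100347232 on the plus strand, and the SREBF2 stretch is chr22:41832955-41833104 on the plus strand.
INSIG1: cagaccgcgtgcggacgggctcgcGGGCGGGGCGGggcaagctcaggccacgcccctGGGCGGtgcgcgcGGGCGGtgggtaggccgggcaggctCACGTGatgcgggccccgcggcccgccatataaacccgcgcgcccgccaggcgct
DHCR7: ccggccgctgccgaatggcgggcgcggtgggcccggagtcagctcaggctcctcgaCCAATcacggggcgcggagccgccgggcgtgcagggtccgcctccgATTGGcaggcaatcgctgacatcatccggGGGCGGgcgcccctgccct
SCD: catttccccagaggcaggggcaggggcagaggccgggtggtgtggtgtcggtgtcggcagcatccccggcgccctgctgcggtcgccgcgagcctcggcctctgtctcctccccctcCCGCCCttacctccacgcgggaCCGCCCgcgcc
SREBF2: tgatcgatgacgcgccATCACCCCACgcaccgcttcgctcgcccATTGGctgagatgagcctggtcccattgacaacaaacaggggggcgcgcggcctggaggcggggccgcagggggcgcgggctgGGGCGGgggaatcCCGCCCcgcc

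In SREBF2, the match to the sterol regulatory element began 134 bases before the start and that to the NF-Y box 106 bases before it. In DHCR7, NF-Y boxes began 94 and 48 bases before the start shown, while the 150 bases before its other start held no match to these motifs, and in INSIG1 the E-box began 55 bases before it. Over the whole windows of 300 bases (250 before to 50 after the start), the NF-Y box was found in 21 of the 28 listed genes with an entry in the promoter table, a set that differs from the 28 measured genes (75.0%), against 44.2% of the 9563 genes that were measured on the arrays and have an entry. The GC box was found in 26 members (92.9%), against 69.8% of those genes, and the E-box in 5 members (17.9%), against 12%. The sterol regulatory element was found in SREBF2 (3.57% of members), against 0.178% of those genes, and its core in the same member, against 1.5%. Over the 35116 promoters of the table, the shares were 34.6% for the NF-Y box, 45.0% for the GC box, 7.26% for the E-box, 0.154% for the sterol regulatory element and 1.13% for its core. These matches are letters in a window and describe no binding. Only the given letters within that window were searched, so the lack of a match does not show that an element is absent.

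None of the 28 synthesis genes passed an adjusted p of 0.05 in limma, where 0.502% of all genes did. Small differences ran mostly one way: the mean was higher in wt cells for 25 members (89.3%), against 58.4% of all genes, and lower for LSS, SC5D and INSIG2. The median difference of the members was 0.09, against 0.03 over all genes, and single members lay between −0.09 and 0.42. At an unadjusted p under 0.05, 3 members (10.7%) were higher in wt cells, namely INSIG1, DHCR7 and SCD, against 8.84% of all genes, and 0 were lower, against 6.87% of all genes. That share is near the share over all genes. Both wt arrays lay above all mutant arrays for 8 members (28.6%), against 21.5% of all genes, and below them for 0 members, against 13.4%. The 95% interval of the difference left out a doubling in either direction for 28 of 28 members, as it did for 11851 of all genes.

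**Figure D1:**
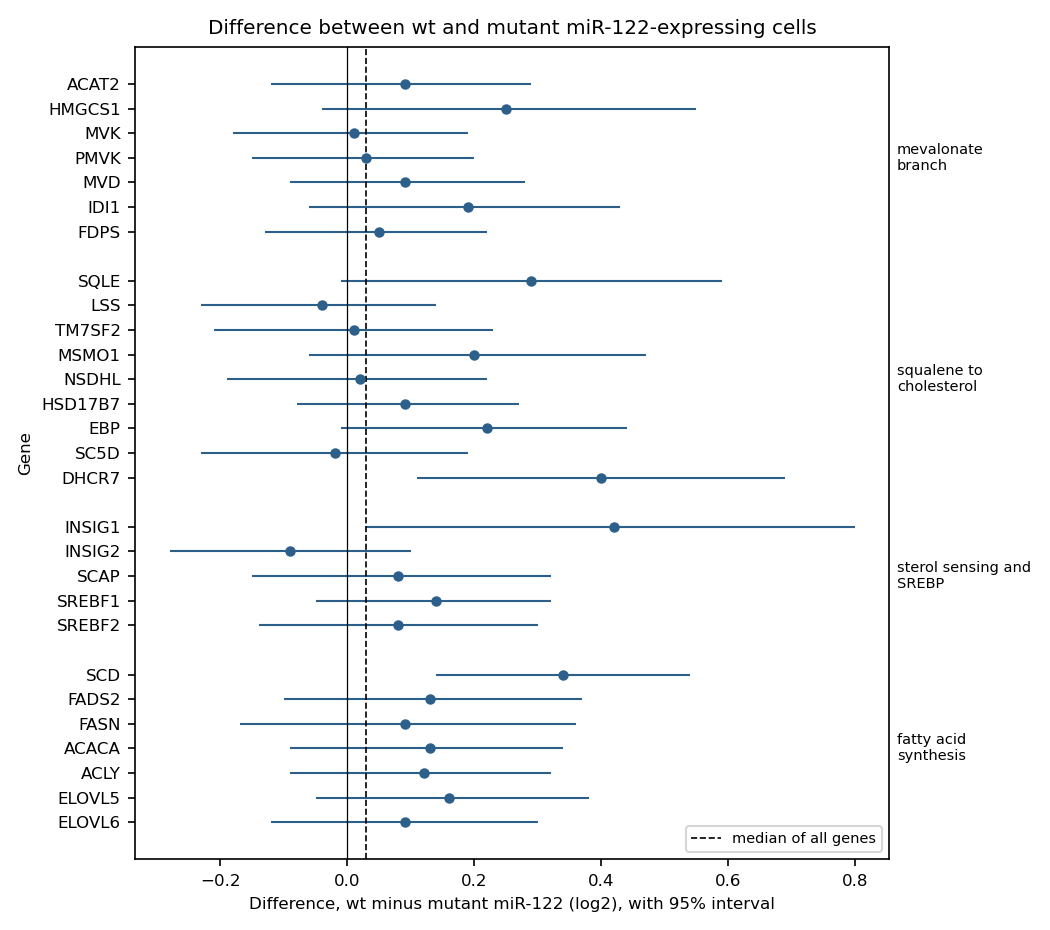
The difference of each of the 28 genes between wt (2 arrays) and mutant (3 arrays) miR-122-expressing cells on the log2 scale, wt minus mutant, ordered by role. Points are limma estimates, bars are 95% intervals and the dashed line is the median of all genes (0.03), and the intervals of INSIG1, DHCR7 and SCD lie above 0.

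In the mevalonate branch, all 7 measured genes had a higher mean in wt cells, with a median difference of 0.09, and all 7 had arrays that overlapped between the groups. HMGCS1 makes HMG-CoA from acetyl-CoA and acetoacetyl-CoA. Its values were 7.77, 8.0 and 8.01 in mutant replicates 1 to 3 and 7.99 and 8.36 in wt replicates 1 and 2. The array of wt replicate 2 stood above the others, while wt replicate 1 lay among the mutant arrays. The mean of the mutant arrays was 7.92 ± 0.14 (SD, n = 3) and that of the wt arrays 8.18 ± 0.27 (SD, n = 2). Their difference was 0.25 (SE 0.128, limma adjusted p = 0.419).

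IDI1, the isomerase of the isoprenoid units, had values of 9.26, 9.43 and 9.51 in mutant and of 9.47 and 9.70 in wt cells. Its groups overlapped too, with mutant replicate 1 lowest and wt replicate 2 highest. From means of 9.40 ± 0.13 (SD, n = 3) and 9.58 ± 0.16 (SD, n = 2), the difference was 0.19 (SE 0.105, limma adjusted p = 0.471). The other genes of the branch were nearer to 0. The difference was 0.09 for ACAT2, which makes acetoacetyl-CoA from acetyl-CoA, and 0.01 for the mevalonate kinase MVK. It was 0.03 for the phosphomevalonate kinase PMVK, 0.09 for the decarboxylase MVD and 0.05 for the farnesyl diphosphate synthase FDPS. The limma adjusted p-values of all these other genes lay between 0.642 and 0.984.

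From squalene to cholesterol, 7 of 9 measured genes had a higher mean in wt cells, with a median difference of 0.09, and in SQLE, HSD17B7, EBP and DHCR7 the groups did not overlap. DHCR7, which reduces the last double bond to give cholesterol, had values of 7.47, 7.81 and 7.81 in mutant and of 7.98 and 8.21 in wt cells. The wt arrays both exceeded every mutant array, with mutant replicate 1 apart at the low end. The mean of the mutant arrays was 7.70 ± 0.20 (SD, n = 3) and that of the wt arrays 8.10 ± 0.16 (SD, n = 2), a ratio of wt to mutant of 1.32 on the linear scale. The difference of 0.40 (SE 0.126) had a 95% interval from 0.11 to 0.69 and did not pass (limma adjusted p = 0.217).

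SQLE, the squalene epoxidase, had values of 8.88, 9.20 and 9.21 in mutant and of 9.24 and 9.54 in wt cells. The lower wt array lay just above the mutant arrays, and mutant replicate 1 lay far below the other 2. From a mutant mean of 9.10 ± 0.19 (SD, n = 3) and a wt mean of 9.39 ± 0.21 (SD, n = 2), the difference was 0.29 (SE 0.131, limma adjusted p = 0.366). EBP, the sterol isomerase, had values of 8.46, 8.53 and 8.62 in mutant and of 8.63 and 8.88 in wt cells. Its groups met without overlapping, with means of 8.54 ± 0.08 (SD, n = 3) and 8.76 ± 0.17 (SD, n = 2). The difference was 0.22 (SE 0.0973, limma adjusted p = 0.360).

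MSMO1, the first enzyme in the removal of the methyl groups at carbon 4, had values of 10.06, 10.27 and 10.39 in mutant and of 10.34 and 10.55 in wt cells. One wt array lay among the mutant arrays, and the mutant mean was 10.24 ± 0.17 (SD, n = 3), the wt mean 10.44 ± 0.15 (SD, n = 2). The difference was 0.20 (SE 0.115, limma adjusted p = 0.471). HSD17B7, a ketoreductase of the same demethylation, differed by 0.09 and the dehydrogenase NSDHL by 0.02. The sterol reductase TM7SF2 differed by 0.01, the lanosterol synthase LSS by −0.04 and the desaturase SC5D by −0.02. Of these 5 genes, HSD17B7 alone had groups that did not overlap. CYP51A1, which removes the methyl group of lanosterol at carbon 14, was read by 202314_at and 216607_s_at together with LRRD1, and these gave 0.13 (SE 0.129, limma adjusted p = 0.692) and 0.15 (SE 0.145, limma adjusted p = 0.691).

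Among the 5 genes of sterol sensing, the SREBPs, their escort and their retention proteins, 4 had a higher mean in wt cells, with a median difference of 0.08. INSIG1, itself induced by the SREBPs, had the largest difference of the 28 genes and also the widest spread among the mutant arrays. Its values were 7.69, 8.24 and 8.17 in mutant and 8.32 and 8.59 in wt cells. Both wt arrays lay above every mutant array, and mutant replicate 1 lay so far below the other 2 that the range of the mutant arrays, 0.55, exceeded the difference. The mean of the mutant arrays was 8.03 ± 0.30 (SD, n = 3) and that of the wt arrays 8.45 ± 0.19 (SD, n = 2), a ratio of 1.34. The difference of 0.42 (SE 0.166) had a 95% interval from 0.03 to 0.80 and did not pass (limma adjusted p = 0.309).

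INSIG2, the second retention protein, had values of 8.0, 7.94 and 8.08 in mutant and of 7.98 and 7.85 in wt cells, with a difference of −0.09 and groups that overlapped. SREBF1, which encodes the SREBP best known for fatty acid synthesis, had values of 6.46, 6.60 and 6.5 in mutant and of 6.69 and 6.63 in wt cells. The wt arrays exceeded the mutant ones by a small step, with means of 6.66 ± 0.04 (SD, n = 2) and 6.52 ± 0.07 (SD, n = 3). The difference was 0.14 (SE 0.0789, limma adjusted p = 0.481). SREBF2, which encodes the SREBP best known for cholesterol synthesis, differed by 0.08, as did SCAP, both with groups that overlapped.

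All 7 measured genes of fatty acid synthesis and desaturation had a higher mean in wt cells, with a median difference of 0.13, and in SCD and ELOVL5 the groups did not overlap. SCD, the desaturase that makes oleic acid, had the smallest p-value of the 28 genes. Its values were 10.01, 10.22 and 10.19 in mutant and 10.48 and 10.49 in wt cells. The wt values were clear of the mutant ones, by more than the range of 0.20 among these. The mean of the mutant arrays was 10.14 ± 0.11 (SD, n = 3) and that of the wt arrays 10.48 ± 0.01 (SD, n = 2), a ratio of 1.27. The difference of 0.34 (SE 0.0869) had a 95% interval from 0.14 to 0.54 and did not pass (limma adjusted p = 0.149).

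ELOVL5, an elongase of polyunsaturated fatty acids, had values of 10.05, 10.28 and 10.27 in mutant and of 10.36 and 10.37 in wt cells. The wt arrays lay just above mutant replicates 2 and 3, with mutant replicate 1 lower. From a mutant mean of 10.20 ± 0.13 (SD, n = 3) and a wt mean of 10.36, whose 2 arrays differed by 0.01, the difference was 0.16 (SE 0.0929, limma adjusted p = 0.473). ACLY, which releases cytosolic acetyl-CoA from citrate, had values of 10.5, 10.59 and 10.71 in mutant and of 10.75 and 10.68 in wt cells. Its groups overlapped by a single array, and the difference between 10.60 ± 0.11 (SD, n = 3) and 10.72 ± 0.05 (SD, n = 2) was 0.12 (SE 0.0868, limma adjusted p = 0.590).

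The acetyl-CoA carboxylase ACACA, whose product is the building unit of fatty acids, had values of 8.72, 8.99 and 8.81 in mutant and of 8.97 and 8.97 in wt cells. Mutant replicate 2 was the highest of the 5 arrays, and the difference from a mutant mean of 8.84 ± 0.14 (SD, n = 3) was 0.13 (SE 0.0944, limma adjusted p = 0.587). The fatty acid synthase FASN differed by 0.09, the elongase ELOVL6 by 0.09 and the desaturase FADS2 by 0.13, and the groups of these 3 genes overlapped too. FADS1, a desaturase, was read together with MIR1908 by 208962_s_at, 208963_x_at and 208964_s_at, which gave 0.16, 0.04 and 0.05, without overlap of the groups for the first alone.

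**Figure D2:**
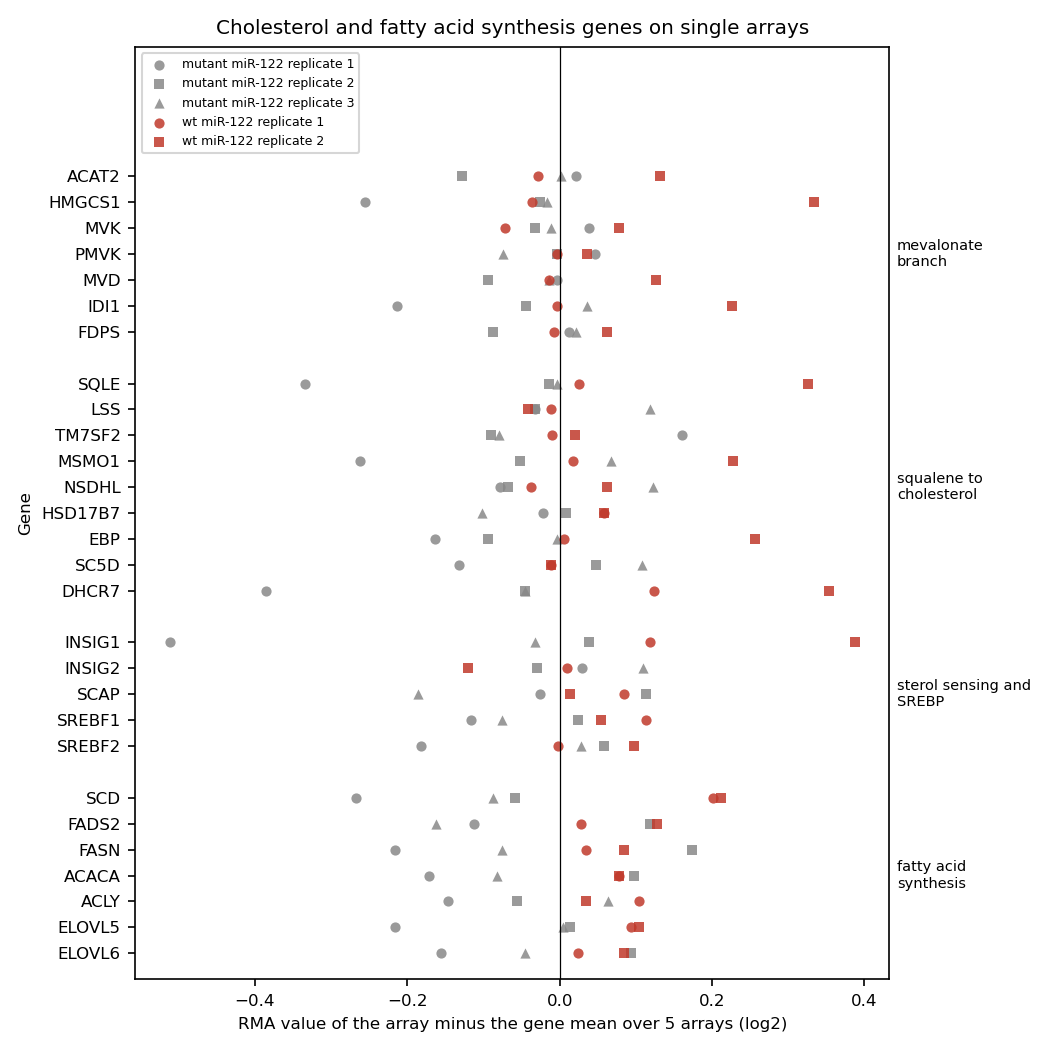
The RMA value of each of the 28 genes on each array, as log2 distance from the mean of that gene over 5 arrays, for mutant (grey, 3 arrays) and wt (red, 2 arrays) miR-122-expressing cells, with the shape marking the replicate. The array of mutant replicate 1 (grey circles) lies lowest for 17 genes and that of wt replicate 2 (red squares) highest for 15.

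In each group, an array stood at the end of the range for many members. The median difference of the members was 0.09 with all arrays, 0.09 without mutant replicate 1 and 0.07 without wt replicate 2. Mutant replicate 1 had the lowest value for 17 of the 28 genes (60.7%), against 22.5% of all genes. Wt replicate 2 had the highest value for 15 (53.6%), against 23.6% of all genes. Both held for 10 genes (35.7%), against 7.44% of all genes, and these were HMGCS1, IDI1, SQLE, MSMO1, EBP, DHCR7, INSIG1, SREBF2, SCD and ELOVL5. The difference of the group means was larger than the range of the mutant arrays in HMGCS1, EBP, DHCR7 and SCD, and the range was the larger in the other 24 (85.7%), against 70.4% of all genes.

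Each gene named in this paragraph had its lowest value in mutant replicate 1 and its highest in wt replicate 2. Leaving out either array therefore had to shrink its difference, and the values show only by how much. Without mutant replicate 1, the difference was 0.25 for INSIG1, 0.29 for DHCR7, 0.18 for SQLE and 0.17 for HMGCS1. Without wt replicate 2, it was 0.28 for INSIG1, 0.29 for DHCR7, 0.14 for SQLE and 0.07 for HMGCS1. EBP gave 0.18 without mutant replicate 1 and 0.10 without wt replicate 2, IDI1 gave 0.12 and 0.07, and MSMO1 gave 0.11 and 0.10. SCD gave 0.28 and 0.33, and over all 5 arrays left out in turn it had the narrowest range of these genes, 0.28 to 0.38. At an unadjusted p under 0.05, 2 of the 28 members were higher in wt cells without mutant replicate 1, where 6.63% of all genes were. Leaving out wt replicate 2, or wt replicate 1, which lay nearer to the mutant arrays, leaves a single wt array. That group then has no spread of its own, so no counts are given for those fits. The median difference of the members was 0.12 without wt replicate 1.

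**Figure D3:**
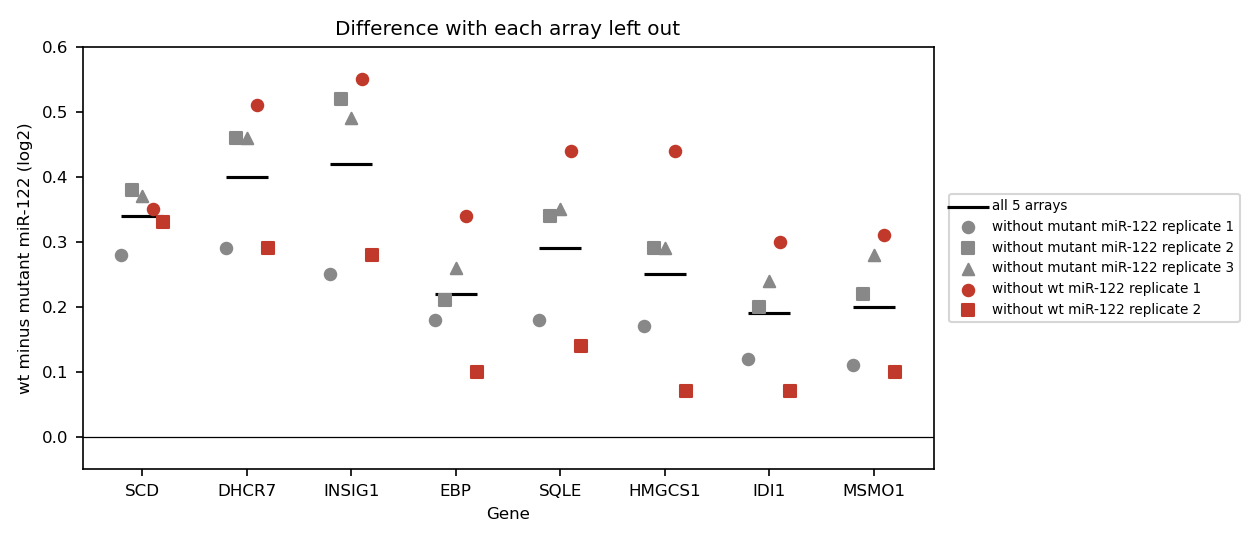
The log2 difference, wt minus mutant miR-122, of 8 members with all 5 arrays (bars) and with each array left out (points, shape and colour giving the array left out). In each of the 8 genes, mutant replicate 1 was the lowest array and wt replicate 2 the highest. Leaving out either therefore had to shrink the difference, and for SCD the values stayed between 0.28 and 0.38.

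Other probe sets of the same genes read the same RNA and differed in size. Over the 54 probe sets of the 28 genes, 46 had a higher mean in wt cells (85.2%), against 57.9% of all probe sets, with a median difference of 0.13 against 0.03. None passed the adjusted threshold in limma. At an unadjusted p under 0.05, 11 (20.4%) from 9 genes were higher in wt cells, against 8.06% of all probe sets. At that p, 0 were lower. These 11 include repeat readings of a gene, all probe sets of INSIG1 among them, and some lie below the median level of the arrays. The share is therefore not one over separate genes. For INSIG1 the other probe sets, 201627_s_at and 201625_s_at, gave 0.42 (SE 0.176) and 0.31 (SE 0.111), and for DHCR7 201791_s_at gave 0.31 (SE 0.134). EBP gave 0.41 (SE 0.0987, limma adjusted p = 0.135) at 213789_at and 0.19 at 202735_at.

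SCD was less even: 200831_s_at gave 0.20, 211162_x_at 0.22 and 211708_s_at −0.01, the last with an SE of 0.209. SQLE gave 0.33 at 213562_s_at and 0.18 at 213577_at, IDI1 gave 0.29 at 204615_x_at, and HMGCS1 gave 0.09 at 205822_s_at with an SE of 0.174. The dimmer probe sets 214358_at of ACACA, 217006_x_at of FASN and 215082_at of ELOVL5 gave 0.36, 0.25 and 0.34, more than the brightest probe sets of these genes, while 214153_at of ELOVL5 gave −0.02. ACLY gave 0.19 at 201127_s_at and 0.11 at 210337_s_at, both without overlap of the groups.

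Genes of neighbouring lipid pathways were read from the same fit. Of 62 measured genes (76 listed) in 4 lists, the list of fatty acid oxidation included, 0 passed the adjusted threshold in limma, where 0.502% of all genes did. At an unadjusted p under 0.05, 3 were higher, against 8.84% of all genes, and 3 were lower, against 6.87%. In all, 26 (41.9%) had a higher mean in wt cells, against 58.4% of all genes, and 36 a lower one. The median difference was −0.02. Most of that balance came from fatty acid oxidation, with 6 higher and 15 lower means. For 19 other genes of lipid synthesis, the proteases that cleave the SREBPs among them, 10 means were higher and 9 lower, with a median difference of 0.01. Among them, LPIN1, a phosphatidate phosphatase on the way to triglycerides, differed by 0.32 (SE 0.136, limma adjusted p = 0.331) with groups that overlapped, and HACD2, a dehydratase of very long chain fatty acids, by −0.23 (SE 0.0976, limma adjusted p = 0.331). ACACB, the carboxylase at mitochondria, differed by 0.16 (SE 0.0760, limma adjusted p = 0.400).

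For 12 genes of lipoprotein uptake and sterol trafficking, 5 means were higher and 7 lower, and the median difference was −0.02. LRP8, a receptor of the lipoprotein receptor family that binds apolipoprotein E and reelin, had values of 7.10, 7.29 and 7.58 in mutant and of 8.07 and 8.23 in wt cells. Both wt arrays lay well above the mutant arrays, and the difference of 0.83 (SE 0.137, limma adjusted p = 0.0588) just missed the threshold. LRP8 is among the genes that a supplementary list of the study had picked from these arrays, so its place in the list is not independent evidence. OSBP, an oxysterol-binding protein, differed by 0.13, and SOAT1, which esterifies cholesterol for storage, by −0.14.

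For 10 genes of the LXR response and cholesterol efflux, which removes sterol from cells, the median difference was −0.01, with 5 higher and 5 lower means. APOE differed by 0.15 (limma adjusted p = 0.491), MYLIP, a ligase that marks lipoprotein receptors for breakdown, by −0.22 (SE 0.140, limma adjusted p = 0.520) and CYP46A1, a cholesterol hydroxylase, by −0.10 (limma adjusted p = 0.568).

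Markers of cell types were read on the same arrays. Their lists were written with earlier results of these data known. The study had also reported hESC markers, NANOG and SOX2 among them, in its top probes from these arrays. The counts of the hESC list are therefore not independent evidence. Of 16 measured markers of undifferentiated hESC, all had a higher mean in wt cells, with a median difference of 0.51, and 6 rose at the adjusted threshold in limma: DNMT3B, POLR3G, PTPRZ1, UTF1, JARID2 and FGF4. Of 16 trophoblast markers, 14 had a lower mean in wt cells, with a median difference of −0.16. HSD3B1, HAND1, VTCN1 and CRH fell at the adjusted threshold in limma. At an unadjusted p under 0.05, 7 trophoblast markers were lower and 1, TFAP2C (0.32), was higher. GATA3, GATA2, TFAP2A and GCM1 differed by −0.18 to −0.05, with groups that overlapped. Of 20 mesenchyme and fibroblast markers, 17 had a lower mean, with a median of −0.43, and of 14 hepatic and endoderm markers, 11 had a higher mean, with a median of 0.21. Of either list 0 passed in limma, and at an unadjusted p under 0.05, 14 mesenchyme and fibroblast markers were lower and 0 hepatic and endoderm markers differed. Over all genes, 58.4% had a higher mean in wt cells, and 0.502% passed the adjusted threshold in either direction. At the unadjusted p, 8.84% of all genes were higher and 6.87% lower.

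On single arrays, the median distance of the synthesis genes from their gene means was −0.14, −0.03 and −0.02 in mutant replicates 1 to 3 and 0.01 and 0.08 in wt replicates 1 and 2. That of the hESC markers was −0.31, −0.26 and −0.14 in mutant and 0.31 and 0.35 in wt cells. Both lists were lowest in mutant replicate 1 and highest in wt replicate 2, and the hESC markers separated the groups by more. For the trophoblast markers the values were 0.04, 0.26 and 0.03 in mutant and −0.11 and −0.15 in wt cells, for the mesenchyme and fibroblast markers 0.09, 0.05 and 0.39 against −0.34 and −0.18, and for the hepatic and endoderm markers 0.09, −0.46 and 0.21 against 0.19 and −0.07. The part of the cell type makeup in the differences of the synthesis genes was not tested.

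**Figure D4:**
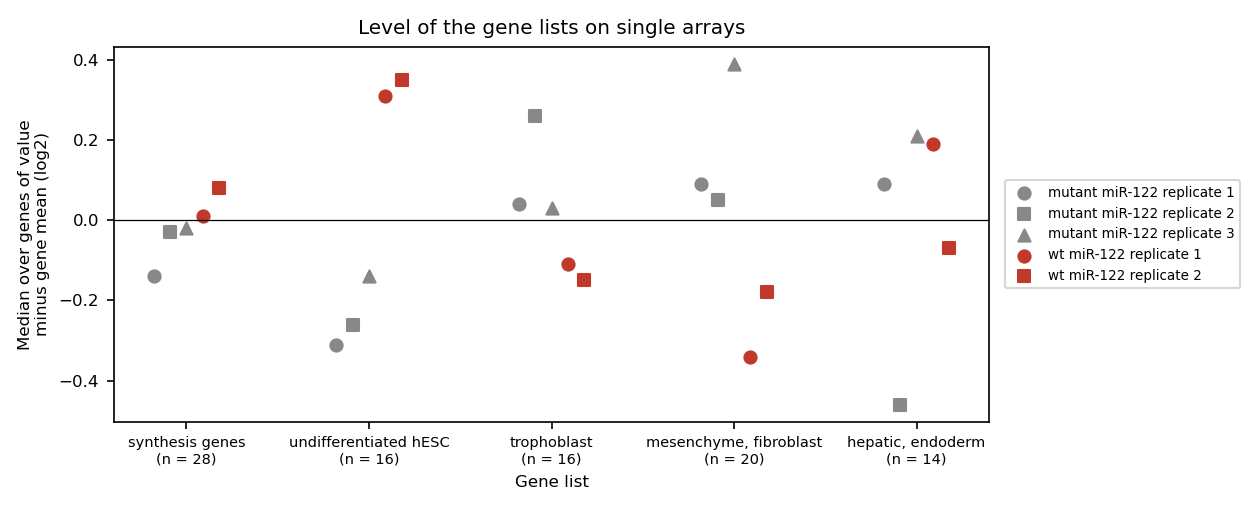
The median, over the measured genes of each list, of the log2 value of an array minus the gene mean over 5 arrays, for the 28 synthesis genes and 4 lists of cell type markers in mutant (grey) and wt (red) miR-122-expressing cells. The synthesis genes span −0.14 to 0.08, less than the hESC markers at −0.31 to 0.35.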

How the data were processed

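Gene expression was measured on 5 Affymetrix Human Genome U133A 2.0 arrays. The deposited log2 values were made by the authors with RMA, per the methods, and were used unchanged. RMA sets all arrays to a common distribution, so a shift shared by most genes would not be seen. The precision is limited by the number of arrays, with a median SE of 0.0878 (log2). Probe sets were named by GEO's platform annotation, with symbols updated by Entrez ID. After leaving out 62 controls, 22215 probe sets were fitted by group alone (lmFit and eBayes, limma 3.58.1, R 4.3.3), and p-values were adjusted by Benjamini-Hochberg over all of them. Figures were drawn with matplotlib 3.10.9.

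Members and lists were chosen with earlier results of these data known. All members were named, in full those (up to 12) with the smallest unadjusted p, and up to 3 genes of each related list by the same order. Promoters and the miRNA came from RefSeq tables of GRCh38.p14, with promoters for 28 of the 32 members. Alternatives were the methods' t-test, a trended robust prior, a filter on dim probe sets (below the median), dropping probe sets shared between transcripts, a replicate block, array weights, centring, averaging a gene's probe sets and leaving out each array.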

Additional observations from a re-analysis of the deposited data

How the results depend on the processing

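The count of members past the adjusted threshold was 0 in every alternative but the replicate block, in which DHCR7 (0.46, adjusted p = 0.0123), INSIG1 (0.49, adjusted p = 0.0110) and SCD (0.37, adjusted p = 0.0496) passed, 3 members beside 4.45% of all genes. The shared numbers 1 and 2 are not stated to pair the arrays, so the block is no main result. Correlations of their deviations were 0.15 and 0.12. Those across the numbers 1 and 2 were −0.12 and −0.15, which mirror them because the wt group has 2 arrays. Mutant replicate 3 has no partner in the block and adds nothing to its differences. The block leaves 1 residual degree of freedom, so its SEs and p-values rest mostly on the spread pooled over all probe sets. The SE of INSIG1 was 0.104 with the block, against 0.166 without it. Members higher at an unadjusted p under 0.05, 3 in the report, were 1 by the methods' t-test (8.13% of all genes) and 1 without probe sets shared between transcripts (17 members left, 8.45%), 5 with a trended robust prior (9.17%) and with array weights (9.27%), 6 with the mean of all probe sets (9.50%) and 8 with the replicate block (8.95%). Leaving out an array gave 1 to 7, against 5.89% to 8.84% of all genes. Members without overlap and higher in wt cells, 8 of 28 in the report, were 5 of 17 without shared probe sets. With an array left out, where fewer arrays make overlap rarer, they were 9 to 17, and those lower were 0 to 2. The shares over all genes were not computed for these settings, so these counts cannot be compared with the report. The median of the members was 0.07 to 0.16 with an array left out, highest without mutant replicate 2, and 0.09 to 0.13 otherwise.

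In the related lists, LRP8 passed with a trended robust prior (1 gene), with the filter (1) and without shared probe sets (1), CPT1A with the mean of all probe sets (1), and both with the replicate block (2). The direction turned for MVK (replicate block −0.00141, mean of probe sets −0.01, array left out −0.07 to 0.08), PMVK (replicate block −0.01, array left out −0.01 to 0.05), LSS (replicate block 0.01, array left out −0.07 to 0.01), TM7SF2 (replicate block −0.03, array weights −0.0031, array left out −0.03 to 0.09), NSDHL (array left out −0.04 to 0.08) and SC5D (without shared probe sets 0.22, replicate block 0.03, mean of probe sets 0.10, array left out −0.09 to 0.03). The other 22 members kept their direction in every alternative run. The causes were not tested.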

Other observations

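Genes of fatty acid oxidation, the route opposite to synthesis, were read from the same arrays. Of 21 measured genes, 6 (28.6%) had a higher mean in wt cells, against 58.4% of all genes, and 15 a lower one. The median difference was −0.03 against 0.03 over all genes, and 0 passed the adjusted threshold in limma, where 0.502% of all genes did. At an unadjusted p under 0.05, 1 was higher, against 8.84% of all genes, and 2 were lower, against 6.87%. CPT1A, which lets long chain fatty acids into mitochondria, had values of 6.76, 6.88 and 7.09 in mutant and of 7.24 and 7.67 in wt cells. Both wt arrays lay above the mutant arrays, with a difference of 0.55 (SE 0.144, limma adjusted p = 0.161).

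DECR1, a reductase needed for unsaturated fatty acids, had values of 8.72, 8.60 and 8.61 in mutant and of 8.43 and 8.30 in wt cells, with both wt arrays below the mutant arrays. Its difference was −0.27 (SE 0.0822, limma adjusted p = 0.199). ETFDH, which passes electrons from the oxidation to the respiratory chain, had values of 6.12, 6.03 and 5.87 in mutant and of 5.69 and 5.76 in wt cells, again without overlap. Its difference was −0.28 (SE 0.0923, limma adjusted p = 0.234).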
